A study of Mus musculus with 4 samples.

Results

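Alcam, Pvrl3, Lsamp, Igsf11 and Cadm2 encode cell adhesion molecules whose outer part is built of immunoglobulin-like domains. The 5 genes were taken by symbol from a table of 36186 rows, and each matched 1 row on mouse chromosome 16. Their levels were compared between PTC2+ and PTC2- cells, which were sorted with an antibody to PTC2 from the kidney-ureter junction of SV/129 mouse embryos at E13.5. All embryos were PTC-/-MM mutants, with hedgehog signalling constitutively active in the metanephric mesenchyme, so both populations carried the mutation and no normal tissue was analysed here. How the deletion was driven and how many embryos were pooled are not given in the sources used here. Each population has 2 libraries, called replicates 1 and 2, and nothing states that they came from separate litters, and the p-values therefore cover just the differences among these 4 libraries, which may be technical.

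Immunoglobulin-superfamily adhesion molecules sit in the plasma membrane and bind either copies of themselves or relatives on the next cell. Through these contacts they help epithelial cells to form junctions, axons to find their paths and blood cells to dock. Alcam (CD166) binds itself and the lymphocyte receptor CD6, and is made by many epithelial, endothelial and mesenchymal cells. Pvrl3, now called Nectin3, is a nectin that pairs with other nectins at adherens junctions. Cadm2 is a member of the SynCAM (nectin-like) family of the nervous system. Lsamp is a lipid-anchored IgLON protein named for the limbic system, and Igsf11 is a self-binding protein of the CTX family known from brain and testis.

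The letters upstream of the 3 members whose populations did not overlap (below) are shown, since Alcam and Lsamp were both lower and Igsf11 was higher in PTC2+ cells. They are the 250 bases before the RefSeq start on GRCm38.p6, a different build from the mm9 of the submitters' processing notes. Capitals mark matches to CAGGTG on either strand (CACCTG on the printed strand), the E-box form bound by Snail-family repressors. For Lsamp, the first of its 2 RefSeq starts is shown.
Alcam (chr16:52453082-52453331, minus strand): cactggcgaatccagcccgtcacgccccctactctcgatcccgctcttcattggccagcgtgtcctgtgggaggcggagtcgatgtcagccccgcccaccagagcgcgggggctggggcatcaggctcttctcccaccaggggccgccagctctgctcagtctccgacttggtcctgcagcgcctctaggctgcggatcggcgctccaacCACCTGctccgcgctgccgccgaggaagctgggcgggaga
Lsamp (chr16:39984114-39984363, plus strand): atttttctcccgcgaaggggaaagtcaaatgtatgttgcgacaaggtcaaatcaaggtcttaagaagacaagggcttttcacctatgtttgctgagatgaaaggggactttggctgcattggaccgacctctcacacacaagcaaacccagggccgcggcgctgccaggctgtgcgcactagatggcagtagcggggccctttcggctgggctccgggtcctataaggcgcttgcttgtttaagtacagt
Igsf11 (chr16:38902095-38902344, plus strand): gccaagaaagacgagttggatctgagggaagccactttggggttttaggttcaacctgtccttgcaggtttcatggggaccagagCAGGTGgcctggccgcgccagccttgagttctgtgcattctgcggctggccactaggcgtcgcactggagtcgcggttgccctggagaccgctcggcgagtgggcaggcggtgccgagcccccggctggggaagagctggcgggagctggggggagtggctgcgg

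Alcam and Igsf11 each held 1 CAGGTG match, and the stretches upstream of Lsamp (both starts), Pvrl3 and Cadm2 held 0. Of all 32851 promoter stretches of this length in the RefSeq table, 17.2% held at least 1. The GLI consensus GACCACCCA, searched on both strands, had 0 matches upstream of the 5 genes and was present in 0.225% of all stretches. The shares of G and C were 69.2% upstream of Alcam, 73.2% upstream of Pvrl3, 65.6% upstream of Igsf11 and 60.8% upstream of Cadm2. Upstream of the 2 Lsamp starts they were 53.2% and 56.4%, near the median of all stretches (52.4%). A match of letters is a description and shows no bound site.

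The unit is NRPKM, a normalized RPKM in which reads are divided by the length of the gene and the size of the library and then rescaled by the authors, so levels of different genes can be set side by side. For most of the table gene names could not be relied on: the rows listed as Rps6 and Rpl13a, ribosomal protein genes that every cell uses, were at 0 in all 4 libraries. Names were taken to fit values in 3 chromosome segments, which had been chosen from the values of these libraries. The 5 members lie in the longest, from Naa60 to Mrps6 on chromosome 16. The row listed as Tigit lies in it too, at a level unusual for that gene (below). Within 10 rows of the members, all 32 pseudogene rows were at 0 in all 4 libraries. Each member had at least 3 protein-coding neighbours averaging 1 NRPKM or more. Because of how the segments were chosen, these counts are no separate check of the names. The row listed as Ptch1, the hedgehog receptor gene, lies outside the segments and cannot check the labels; it averaged 5.09 ± 1.28 NRPKM in PTC2+ and 6.69 ± 1.25 NRPKM in PTC2- cells (SD, n = 2 each). By an estimate from low values, 1 read per kb of transcript corresponded to 0.859 and 0.818 NRPKM in PTC2+ libraries, against 0.645 and 0.878 NRPKM in PTC2- libraries.

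Alcam was the most abundant of the 5 and was lower in PTC2+ cells. Its level was 154.8 and 129.1 NRPKM in PTC2+ replicates 1 and 2, against 247.2 and 227.9 NRPKM in PTC2- replicates 1 and 2. Both PTC2+ libraries lay below both PTC2- libraries, and the gap was wider than the spread within either population. The means were 142 ± 18.2 NRPKM in PTC2+ and 238 ± 13.7 NRPKM in PTC2- cells (SD, n = 2 each), a ratio of 0.598. The log2(NRPKM + 1) difference was -0.74 (SE 0.154, 95% interval -1.13 to -0.36). Across all 11807 rows tested by limma it did not pass (adjusted p = 0.0755). The segments, chosen from the values of these libraries, held a larger share of rows passing over the table (6.19% against 2.92%). Adjusted over the 711 tested rows of the segments Alcam did pass (limma adjusted p = 0.0396), which is no independent support. That call was lost without any 1 of the 4 libraries, PTC2+ or PTC2-, while the difference stayed between -0.87 and -0.61. Such a fit leaves 1 library in a population, so the loss cannot be set down to Alcam itself. In bulk samples such as these, fewer cells of a type and less RNA per cell cannot be told apart.

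Lsamp was present at a low level and was also lower in PTC2+ cells. Its values were 3.67 and 4.27 NRPKM in PTC2+ libraries, against 13.0 and 10.1 NRPKM in PTC2- libraries. The populations did not overlap, and the PTC2+ mean was 0.344 of the PTC2- mean. The log2 difference was -1.33 (SE 0.357, 95% interval -2.22 to -0.44), which missed the threshold over the table (limma adjusted p = 0.127) and within the segments (limma adjusted p = 0.0726). On the longest GENCODE transcript (8794 bases) these values would stand for about 37.6 and 45.9 reads in PTC2+ and 177 and 101 reads in PTC2- libraries. The sources used here do not give the gene length that the authors used, and a shorter one would mean fewer reads.

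Igsf11 went the other way. Its level was 21.3 and 27.0 NRPKM in PTC2+ libraries, against 2.55 and 8.85 NRPKM in the PTC2- libraries. The populations did not overlap, but the PTC2- libraries differed from each other by more than those of any other member, with an SD of 78.1% of their mean against 16.5% in PTC2+ libraries. The PTC2+ mean was 4.24 times the PTC2- mean, and the log2 difference was 2.08 (SE 0.528, 95% interval 0.77 to 3.39). It did not pass over the table (limma adjusted p = 0.115) or within the segments (limma adjusted p = 0.0638). The 2.55 NRPKM of PTC2- replicate 1 would stand for about 13.6 reads on the longest GENCODE transcript of 3443 bases. Without PTC2- replicate 1 the difference was 1.34, and without PTC2- replicate 2 it was 2.81.

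Pvrl3 and Cadm2 overlapped between the populations. Pvrl3 stood at 65.7 and 74.8 NRPKM in PTC2+ libraries, against 69.4 and 65.6 NRPKM in PTC2- libraries, so that all 4 lay close together. Its log2 difference was 0.05 (95% interval -0.35 to 0.46; limma adjusted p = 0.896), and the interval spans 0.786-fold to 1.37-fold. The sign turned to -0.04 without PTC2+ replicate 2. Cadm2 was the lowest of the 5, at 2.48 and 2.88 NRPKM in PTC2+ libraries, against 1.71 and 2.50 NRPKM in PTC2- libraries. Its log2 difference was 0.25 (95% interval -0.81 to 1.31; limma adjusted p = 0.803), and a difference of 0.571-fold to 2.48-fold lies within that interval. Leaving out PTC2- replicate 1 gave 0.07, leaving out PTC2- replicate 2 gave 0.44, and leaving out PTC2+ replicate 2 gave 0.17. On the longest transcript (9564 bases) the Cadm2 values would stand for about 27.6 and 33.6 reads in PTC2+ and 25.4 and 27.3 reads in PTC2- libraries. An antisense gene shares 2.61% of the exonic bases of Cadm2 in GENCODE, and the sources used here do not say if reads were counted by strand.

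**Figure D1:**
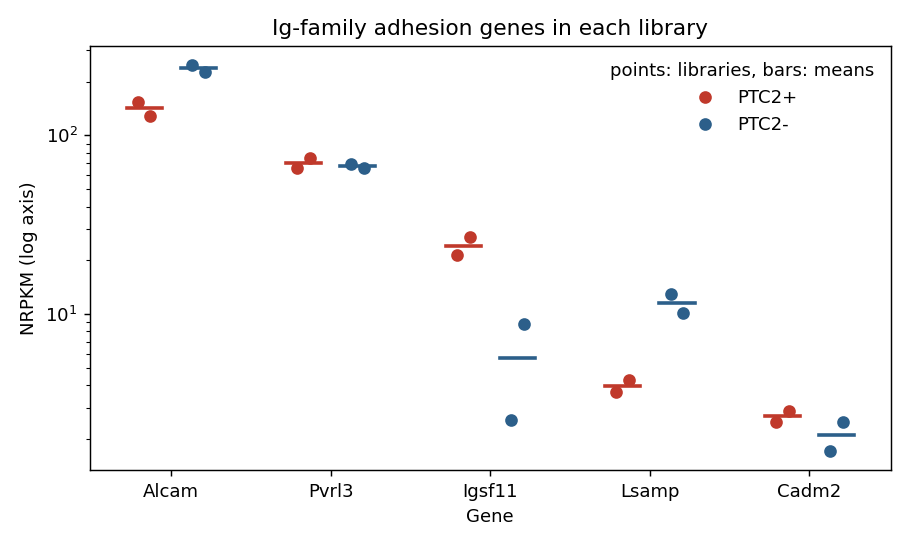
Level of each gene in NRPKM on a log axis, with PTC2+ (red) left of PTC2- (blue); points are the 2 libraries of a population and bars their means. Alcam and Lsamp lie lower and Igsf11 higher in PTC2+ libraries, while Pvrl3 and Cadm2 overlap.

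Of the 11807 rows tested, 345 passed (limma adjusted p under 0.05), a background of 2.92%, and 0 of the 5 members did. Of the 5, 3 were at an unadjusted p under 0.05 in limma, as were 27.3% of the tested segment rows. Of the tested segment rows 6.19% passed over the table and 11.1% when adjusted within the segments. By the second rule 1 of the 5, Alcam, was called, as lower; 1.97% of segment rows were called in that direction. The populations did not overlap in 3 of the 5 members, against 59.6% of tested segment rows, so this count is at the background. An exact permutation test of a single gene with 2 libraries against 2 cannot give a two-sided p below 0.333. All 5 members passed the filter on low values (1 NRPKM or more in at least 2 libraries).

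Among the 711 tested segment rows, the difference of Lsamp ranked 13th from the lowest and that of Alcam 54th from the lowest. Igsf11 ranked 35th from the highest, and Pvrl3 and Cadm2 lay nearer the middle, 318th and 249th from the highest. The median difference of all tested segment rows was -0.03.

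**Figure D2:**
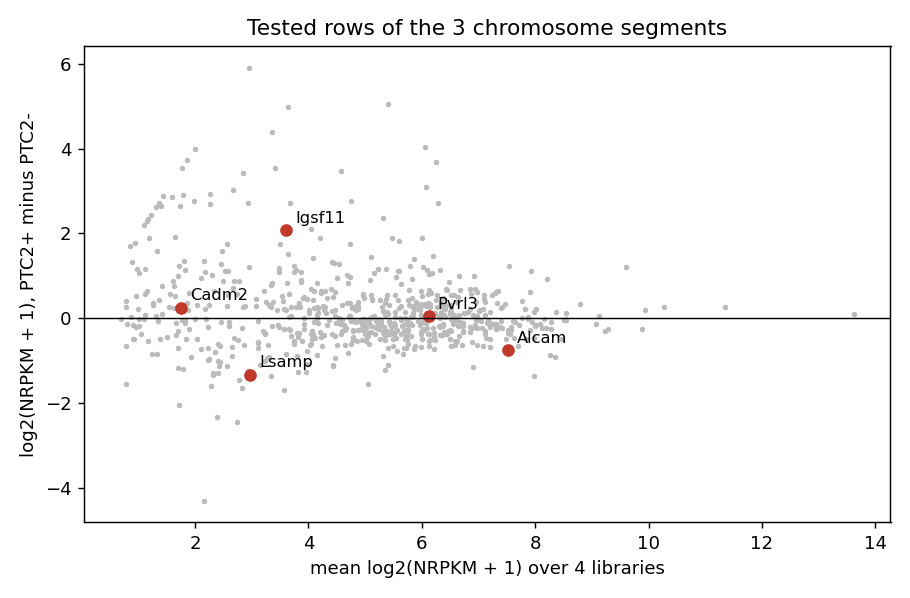
Difference in log2(NRPKM + 1), PTC2+ minus PTC2-, against mean log2(NRPKM + 1) for the 711 tested rows of the segments (grey), with the 5 members in red. Igsf11 lies at 2.08, Lsamp at -1.33 and Alcam at -0.74, and Pvrl3 lies in the middle of rows of its level.

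The order of the levels was not the same in both populations. In each PTC2+ library it ran Alcam, Pvrl3, Igsf11, Lsamp, Cadm2 from high to low. In PTC2- replicate 1 it ran Alcam, Pvrl3, Lsamp, Igsf11, Cadm2, and PTC2- replicate 2 had the same order, with Lsamp at 10.1 and Igsf11 at 8.85 NRPKM. Over the PTC2- libraries, the ranges of Lsamp (10.1 to 13.0 NRPKM) and Igsf11 (2.55 to 8.85 NRPKM) did not overlap, whereas that of Cadm2 (1.71 to 2.50 NRPKM) ended just below that of Igsf11. In PTC2+ libraries no neighbours in the order overlapped. Against the other protein-coding rows of the segments, Alcam stood above 91.0% and 89.3% of them in PTC2+ and above 95.9% and 96.1% in PTC2- libraries. Igsf11 stood above 48.5% and 53.4% of them in PTC2+ and above 31.0% and 39.3% in PTC2- libraries.

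Ratios within a library do not depend on how libraries were scaled to each other. Lsamp was 0.172 and 0.158 times the level of Igsf11 in the PTC2+ libraries, and 5.09 and 1.14 times that level in the PTC2- libraries. Against Pvrl3, the member with the smallest difference, Alcam stood at 2.36 and 1.73 in PTC2+ and 3.56 and 3.48 in PTC2- libraries. Lsamp over Pvrl3 was 0.0560 and 0.0570 in PTC2+ and 0.187 and 0.154 in PTC2- libraries. Igsf11 over Pvrl3 was 0.325 and 0.361 in PTC2+ and 0.0368 and 0.135 in PTC2- libraries. These 4 ratios did not overlap between the populations. For Lsamp over Igsf11 this follows from the single genes, since they did not overlap in opposite directions. The others divide a member without overlap by Pvrl3, which varied little, so the ratios restate the single genes. How often other gene ratios do not overlap was not counted. Cadm2 over Pvrl3 was 0.0377 and 0.0385 in PTC2+ and 0.0247 and 0.0382 in PTC2- libraries, with overlap. Alcam made up 62.4% and 54.2% of the summed level of the 5 genes in PTC2+ and 74.0% and 72.4% in PTC2- libraries.

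**Figure D3:**
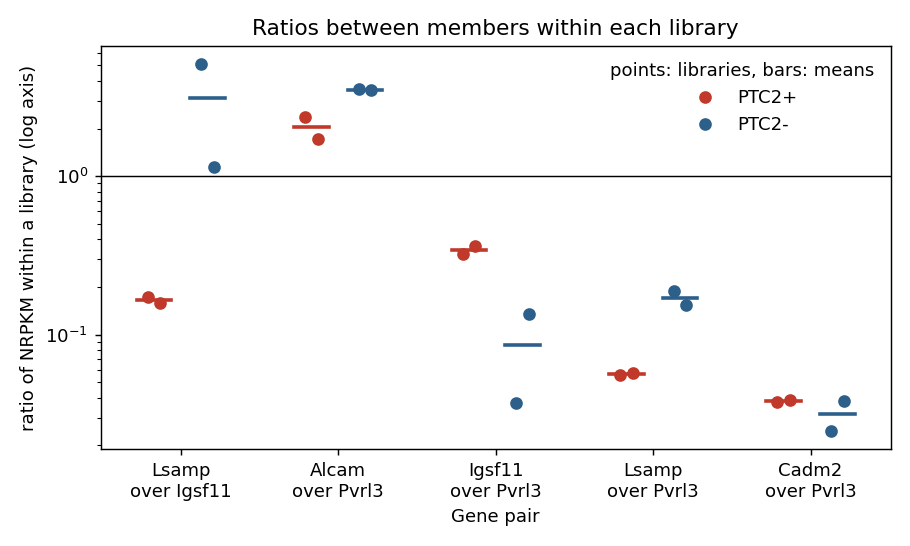
Ratio of the NRPKM of 2 members within a library, on a log axis, with PTC2+ (red) left of PTC2- (blue); points are libraries, bars means, and the line marks a ratio of 1. Lsamp over Igsf11 lies below 1 in both PTC2+ libraries (0.172 and 0.158) and above 1 in both PTC2- libraries (5.09 and 1.14).

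Relatives of the 5 genes were read from a list of 80 symbols of immunoglobulin-superfamily surface molecules, older and current names counted separately. Inside the segments lay 16 of them, the 5 members included, and 14 passed the filter. Of these 14, 0 passed over all rows in either direction (limma), with 9 at an unadjusted p under 0.05. The segments were chosen from the values of these libraries. Adjusted within them 1 was called higher, Ildr1, against 9.14% of segment rows, and 2 lower, Alcam and Robo2, against 1.97%. Each of these 3 calls was lost when any 1 library was left out, and such a fit leaves 1 library in a population. The difference stayed between -0.87 and -0.61 for Alcam, between -1.42 and -1.01 for Robo2 and between 1.72 and 2.07 for Ildr1. With either PTC2+ library left out, 0 rows anywhere passed in limma, and 1757 (without replicate 1) and 1815 (without replicate 2) were at an unadjusted p under 0.05. The populations did not overlap in 3 members higher and 6 lower in PTC2+ cells, where 30.2% and 29.4% of tested segment rows did so. The median difference of the 14 was -0.21, beside -0.03 over all tested segment rows.

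The lymphocyte receptors that bind nectins and their relatives differed in level from each other. Cd96 was listed at 0 in all 4 libraries. Tigit stood at 77.8 and 103 NRPKM in PTC2+ libraries, against 60.7 and 92.6 NRPKM in PTC2- libraries, so that the populations overlapped. A level of this size is unusual for a gene known from T and NK cells, and whether the row holds reads of that gene was not tested. Among the relatives of Igsf11 in the CTX family, Cxadr, the coxsackievirus and adenovirus receptor of epithelial junctions, overlapped between the populations, with 26.2 and 31.4 NRPKM in PTC2+ libraries, against 33.1 and 29.5 NRPKM in PTC2- libraries. Jam2, a junctional molecule of endothelium, stood at 7.03 and 5.49 NRPKM in PTC2+ libraries, against 10.5 and 15.3 NRPKM in PTC2- libraries (log2 difference -0.92, limma adjusted p = 0.232).

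Of the axon guidance and hedgehog receptors on the list, Robo2, a SLIT receptor, stood at 22.3 and 29.9 NRPKM in PTC2+ libraries, against 59.1 and 63.8 NRPKM in PTC2- libraries (log2 difference -1.22, limma adjusted p = 0.0519 over the table and 0.0239 within the segments). Robo1 averaged 36.9 ± 0.130 NRPKM in PTC2+ and 52.0 ± 4.09 NRPKM in PTC2- cells (SD, n = 2 each), with a limma adjusted p of 0.215. Boc, a hedgehog co-receptor with immunoglobulin domains, averaged 46.2 ± 6.93 NRPKM in PTC2+ and 72.9 ± 4.70 NRPKM in PTC2- cells (SD, n = 2 each), with a limma adjusted p of 0.138. Ildr1, a component of tricellular junctions in epithelium, stood at 2.91 and 3.99 NRPKM in PTC2+ libraries, against 0.158 and 0.215 NRPKM in PTC2- libraries (log2 difference 1.90, limma adjusted p = 0.0860 over the table and 0.0472 within the segments). Cd47, the broadly expressed ligand of the phagocyte receptor SIRPα, averaged 110.0 ± 7.96 NRPKM in PTC2+ and 74.9 ± 8.30 NRPKM in PTC2- cells (SD, n = 2 each), with a limma adjusted p of 0.151. Cd200 overlapped between the populations, at 26.4 and 7.28 NRPKM in PTC2+ libraries, against 20.0 and 15.5 NRPKM in PTC2- libraries. Ncam2, a neural cell adhesion molecule, was under 1 NRPKM in every library.

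**Figure D4:**
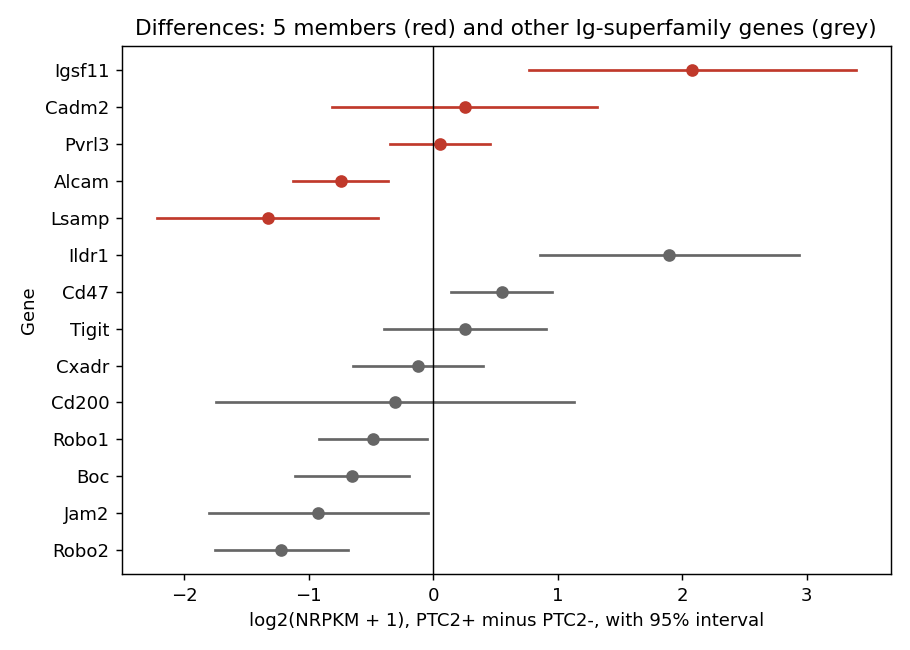
Difference in log2(NRPKM + 1), PTC2+ minus PTC2-, with its 95% interval from limma, for the 5 members (red) and the 9 other tested genes of the immunoglobulin-superfamily list (grey). The intervals of Igsf11, Lsamp and Alcam exclude 0 before adjustment for the number of rows tested, and those of Pvrl3 and Cadm2 include it.

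Genes with the most similar pattern were found as the 2 other protein-coding segment genes with the smallest distance between centred log2(NRPKM + 1) values over the 4 libraries, among 638. For Alcam they were Boc (distance 0.0946) and Cdc16, a subunit of the anaphase-promoting complex (0.116), where the median gene lay at 0.905. For Lsamp they were Tmem45a (0.139) and Robo2 (0.373), with a median of 1.45. Tmem45a stood at 2.11 and 2.19 NRPKM in PTC2+ libraries, against 7.47 and 6.40 NRPKM in PTC2- libraries. Igsf11 had no gene as near: the closest were Pkp2, a desmosome protein (0.758), and Kcnk7, of the two-pore potassium channel family (0.865), with a median of 2.41. Pkp2 stood at 8.14 and 9.04 NRPKM in PTC2+ libraries, against 1.53 and 3.05 NRPKM in PTC2- libraries. The nearest to Pvrl3 were Atp13a3 (0.0569) and Impg2 (0.0856), and the nearest to Cadm2 were Lpp (0.152) and Bach1 (0.186). Impg2 was low, at 1.59 and 1.96 NRPKM in PTC2+ libraries, against 1.57 and 1.61 NRPKM in PTC2- libraries. The nearest of 638 genes lie below the median distance by construction, so these distances are a description only.

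Markers of 6 cell types inside the segments were read beside the 5 members. The lists were chosen with earlier results of these data known, so their counts beside the background are a description only. Over all rows tested by limma, 6 of 7 tested myeloid markers and 1 of 3 epithelial markers (Cldn8) passed as higher. As lower, 2 of 6 mesenchymal and stromal markers (Snai2 and Cd248) passed. Of the 711 tested segment rows, 41 passed as higher and 3 as lower. Of the 3 neural, 2 smooth muscle and 2 endothelial markers tested, 0 passed (limma). At an unadjusted p under 0.05 were 3 neural, 0 smooth muscle and 1 endothelial marker, as were 27.3% of tested segment rows. Of these 3 neural markers, Gap43 (log2 difference -2.34) and Tagln3 (-1.07) were lower and Stxbp5l (1.35) was higher in PTC2+ cells. Of 7 myeloid markers, 6 were higher in both PTC2+ libraries than in both PTC2- libraries, where 30.2% of tested segment rows were. The summed level of the 7 was 793 and 712 NRPKM in PTC2+ libraries, against 50.6 and 55.6 NRPKM in PTC2- libraries. Cd86 and Cd200r1, both of antigen-presenting or myeloid cells, were listed at 0 in both PTC2- libraries. Of 5 epithelial markers, 3 of which passed the filter, 4 were higher without overlap, where 30.2% of tested segment rows were. Of the 4, Upk1b did not pass the filter and was under 1 NRPKM in every library. Their sums were 169 and 156 NRPKM in PTC2+ libraries, against 68.7 and 64.0 NRPKM in PTC2- libraries; without Cldn8 they were 82.2 and 84.7 NRPKM in PTC2+ libraries, against 60.8 and 59.2 NRPKM in PTC2- libraries. Igsf11 was higher in the same libraries as the sums of the myeloid and epithelial lists, as were 30.2% of tested segment rows.

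Of 6 mesenchymal and stromal markers 5 were lower without overlap in PTC2+ libraries, where 29.4% of tested segment rows were. Of the 5, Adamts5 was barely apart, at 13.45 NRPKM in PTC2+ replicate 2 and 13.46 NRPKM in PTC2- replicate 1. The sums were 1274 and 1017 NRPKM in PTC2+ libraries, against 1809 and 1595 NRPKM in PTC2- libraries. Most of each sum was Fstl1, which overlapped, at 980 and 755 NRPKM in PTC2+ libraries, against 1177 and 900 NRPKM in PTC2- libraries. Of 9 neural and glial markers 4 were lower and 1 higher without overlap, where 29.4% and 30.2% of tested segment rows were; of the 4, Csmd1 and Olig2 were under 1 NRPKM in every library. The list had sums of 11.8 and 26.2 NRPKM in PTC2+ libraries, against 37.8 and 35.1 NRPKM in PTC2- libraries. Among these, the growth cone gene Gap43 was listed at 0 in PTC2+ replicate 1 and stood at 4.37 NRPKM in PTC2+ replicate 2, against 11.3 and 10.2 NRPKM in PTC2- libraries, and Olig1 was listed at 0 in all 4. Alcam and Lsamp were lower in the same libraries as the sums of these 2 lists, as were 29.4% of tested segment rows. The smooth muscle sum (below) was lower in the same libraries too. Stxbp5l of the neural list was higher in PTC2+ libraries, at 4.03 and 5.11 NRPKM, against 1.19 and 1.18 NRPKM in PTC2- libraries. Smooth muscle markers (2 genes) summed to 72.0 and 54.3 NRPKM in PTC2+ libraries, against 100.03 and 80.3 NRPKM in PTC2- libraries. Endothelial markers (2 genes) summed to 112 and 74.1 NRPKM in PTC2+ libraries, against 107 and 122 NRPKM in PTC2- libraries, with overlap. The part of cell mixture in the values of the 5 members was not tested. Robo2, Ncam2 and Ildr1 stand on these marker lists and on the immunoglobulin-superfamily list.

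**Figure D5:**
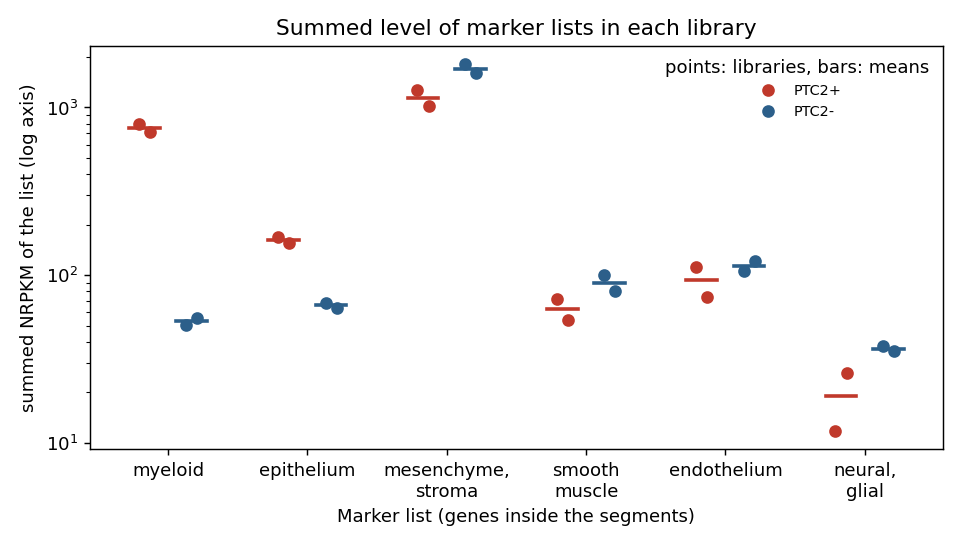
Summed NRPKM of each marker list on a log axis, with PTC2+ (red) left of PTC2- (blue); points are libraries and bars means. The myeloid and epithelial sums are higher in both PTC2+ libraries than in both PTC2- libraries. The mesenchymal, smooth muscle and neural sums are lower, and the endothelial sums overlap.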

How the data were processed

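RNA of 4 libraries was amplified by NuGEN Ovation chemistry and turned into Nextera XT libraries, per the labels' protocols, and sequenced in 1 lane per the file headers. The submitters' processing notes name TopHat2 2.0.5, TopHat, Cufflinks 2.0.0 and the build mm9; the read counter and its gene models are not given in the sources used. The authors deposited normalized RPKM values, as the deposited table's name states, without the formula of their last scaling step. Column sums lay between 283806 and 288752 NRPKM.

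The values, as log2(NRPKM + 1), went into limma 3.58.1 (eBayes with a trend, R 4.3.3). A row was tested where at least 2 libraries reached 1 NRPKM, with Benjamini-Hochberg adjustment over all rows and a threshold of 0.05. This scale understates the change of low genes. The fit was run on simulated data with normal noise of its own estimated size, which cannot check its calls on these libraries. Segments ran along the table from Naa60 to Mrps6, from Ighmbp2 to Pygm (chromosome 19) and from Insr to Agpat5 (chromosome 8), 1303 rows in all; they were found in an earlier look at these values.

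The value of 1 read came from the most common ratio of low values (under 3 NRPKM) between libraries and, for its level, from 4 of 15 short segment genes that shared 1 value (to 3 decimals) after multiplication by length. Few low values matched the step exactly, which makes it an estimate, and no count model was used. Read numbers cover counting error only.

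The members and lists were chosen with earlier results of these data known. The text names all 5 members, listed relatives inside the segments, and the 2 genes nearest in pattern to each member. All 5 members matched a RefSeq promoter entry.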

Additional observations from a re-analysis of the deposited data

How the results depend on the processing

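Of 59 values of the 5 members' differences under 12 alternatives, 56 kept their direction and their side of the threshold. Alcam (-0.74) passed with the replicate block (limma adjusted p = 0.0495) and when adjusted within the segments (0.0396); over its alternatives the adjusted p ran from 0.0396 to 0.513. Igsf11 (1.34 to 2.81) and Lsamp (-1.51 to -0.88) passed under none of their 12 alternatives, with limma adjusted p of 0.0638 to 0.758 and 0.0726 to 0.395. The check of calls within the segments with 1 library left out was chosen after seeing the data. Pvrl3 ranged from -0.038 to 0.147 with 1 library left out. Cadm2 was not tested with a filter of 5 NRPKM. The changed list genes (0) were 1 with a pseudocount of 5, 1 with a filter of 5 NRPKM, 2 with the replicate block and 3 when adjusted within the segments. With 1 library left out, between 0 and 42 rows changed in the table and between 0 and 10 in the segments; the single library left in a population was assumed to vary as the others do. In place of 345 rows over all, a pseudocount of 0.1 gave 214, no filter 2 and no trend 200. The 44 in the segments were 0 with no filter (36186 rows tested), 17 without a trend and 79 when adjusted within them. The cause of these shifts was not tested. What the replicate number stands for is not stated. Libraries sharing it had deviations with a correlation of 0.0229 over the tested rows and 0.0917 over the tested segment rows. The block gave 332 changed rows in all, and all members but Alcam kept their side of the threshold. Depth limits Cadm2 and Igsf11 in PTC2- cells most.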
